A study of Mus musculus with 12 samples.

Results

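Of the 148 pseudogenes with a named probe on a mouse non-coding RNA array, 7 that are transcribed were followed in spleens of mice given ovalbumin (OVA, an egg-white protein used to sensitise mice) or saline. They are Gsdmcl2, Cyp2d13, Slc2a4rg-ps, Morf4l1-ps1, Marcksl1-ps4, Ppp4r1l-ps and Tmem181c-ps. The probe of each was the one carrying a RefSeq accession of the gene, and each gene had 1 such probe with 1 spot per array. All 7 were among the 104 pseudogenes, and the 72515 of 97095 features, that the scanner program called well above background across all arrays of 1 group or more. The genes were taken because an earlier look at these same arrays had found them to move: Gsdmcl2, Slc2a4rg-ps and Cyp2d13 between OVA and control at day 28, Marcksl1-ps4 in the OVA effect averaged over both days, Tmem181c-ps in the difference of the OVA effect between days, and Morf4l1-ps1 and Ppp4r1l-ps between the OVA groups of days 28 and 14. The values of those comparisons are therefore given as a description, without a p-value, and so are those of comparisons correlated with them. A limma test adjusted over all 72515 features is given only for comparisons that the choice left independent.

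A pseudogene is a copy of a gene that no longer encodes the protein of its parent. Some arose when an mRNA was copied back into the genome, without introns, and others when a stretch of DNA was duplicated within a gene cluster and then decayed. Many are still transcribed, and because they resemble their parents a short probe can also read the mRNA of a coding relative. Probes were named here only through RefSeq accessions of non-coding transcripts, so a probe for a coding mRNA could not be named. Under that rule none of 23 coding relatives and neighbours listed for these genes had a named probe. Among them were Gsdmc4, Cyp2d22, Marcksl1, Morf4l1, Ppp4r1 and Zbtb46. Which transcript each probe reads was not tested.

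The animals were female BALB/c mice, aged 6 weeks. OVA was injected into the peritoneum at 2 mg/kg on days 1, 3 and 5, and control mice received saline in its place. Spleens were taken at day 14 or day 28, from 2 control and 4 OVA mice on each day, and total RNA of each was hybridised to its own single-colour array. Markers of B cells, T cells, NK cells, myeloid cells, red cells, endothelium and plasma cells were looked up under the same naming rule. None of these 15 had a named probe, so the tissue could not be checked against markers.

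A level is the log2 signal minus the log2 of the array's 75th percentile, so that 0 is the 75th percentile and a step of 1 is a doubling. It is comparable across arrays for 1 probe, not between probes. That percentile was 266.7 to 368.1 signal units over the 8 arrays other than day 28 OVA, and 483.8 to 549.3 on those 4. All 4 controls lay on slide 1, the OVA arrays of day 14 on slide 2 and those of day 28 on slide 3, so slide and group cannot be told apart in any comparison except that between the control groups. In whole spleen, fewer cells of a type and less RNA per cell cannot be told apart either.

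**Figure D1:**
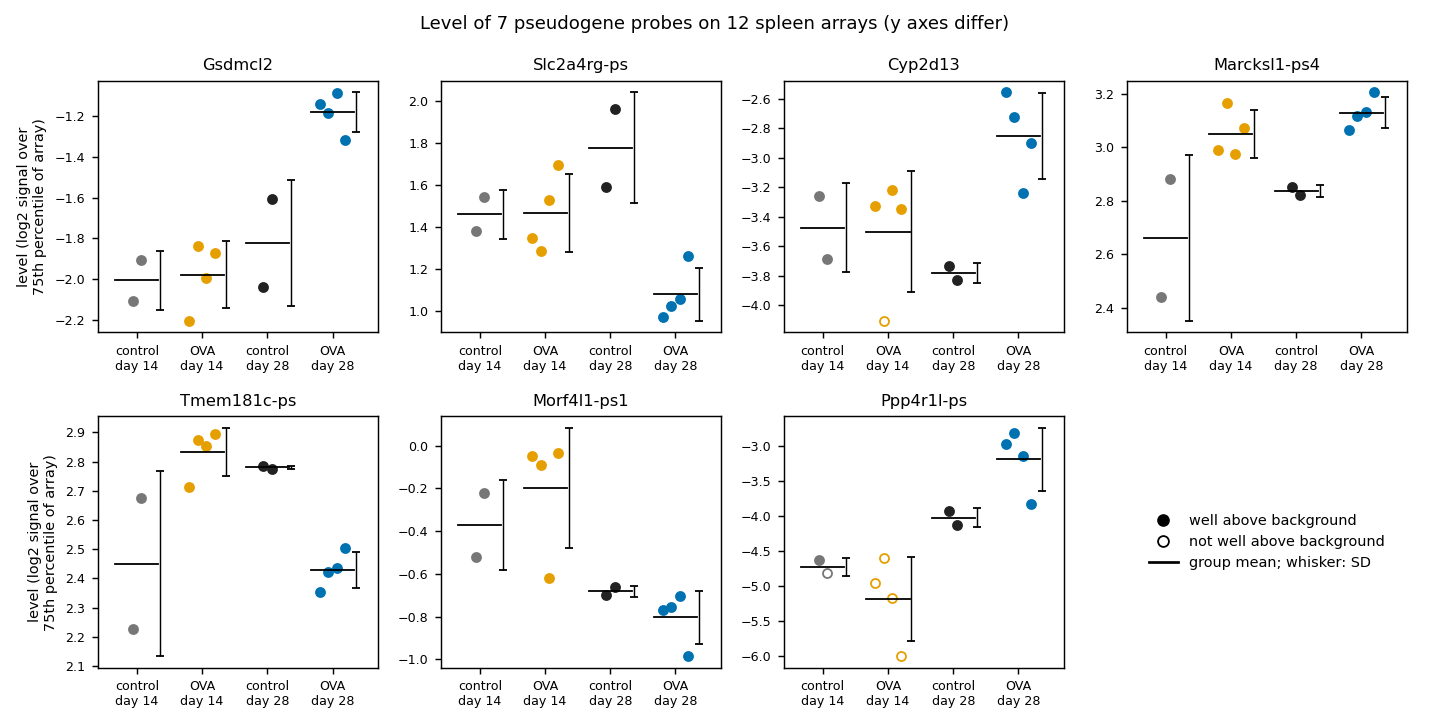
Level of each of the 7 pseudogene probes (log2 signal over the 75th percentile of the array; y axes differ) on each of the 12 arrays, by group. Points are arrays, open where the probe was not well above background, with lines at group means and whiskers of 1 SD; the day 28 OVA arrays do not overlap the day 28 controls in any of the 7 panels, as in 42.2% of all features, though by a very small gap for Morf4l1-ps1, and only Ppp4r1l-ps is open on all 4 day 14 OVA arrays.

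Gsdmcl2 belongs to the gasdermin C cluster and lies beside Gsdmc4 in RefSeq's annotation of the GRCm38.p6 assembly. Gasdermins are proteins that form pores in membranes, best known from lytic cell death. The Gsdmcl2 probe read -2.11 and -1.91 on the day 14 controls, -2.20, -1.84, -1.995 and -1.87 on the day 14 OVA arrays, -2.04 and -1.60 on the day 28 controls, and -1.14, -1.19, -1.09 and -1.32 on the day 28 OVA arrays. The 4 day 28 OVA arrays were the highest of the 12, and the other 3 groups overlapped one another. At day 28 the OVA mean was -1.18 ± 0.10 (SD, n = 4) against -1.82 ± 0.31 (SD, n = 2), a log2 difference of 0.64 ± 0.14 (SE), or 1.56-fold, and the day 28 OVA mean lay 0.80 ± 0.12 above that of day 14. Before scaling, the signal was 221 to 228 units on the day 28 OVA arrays and 62.4 to 104 on the other 8. At day 14, which the choice did not use, the difference was 0.03 ± 0.14 (adjusted p = 0.951, limma), with a 95% interval from -0.29 to 0.35. The day 28 difference leaned on the controls: it was 0.42 without control day 28 replicate 1, the lower of that pair, and 0.86 without replicate 2.

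A separate probe for Gsdmcl2 gave other values. RefSeq lists the RIKEN clone 4921501E01 as a synonym of the gene, and the array carries a probe for that clone which was well above background on all 12 arrays. It read -1.36 and -1.19 on the day 14 controls, -1.63, -1.44, -1.36 and -1.48 on the day 14 OVA arrays, -1.71 and -1.40 on the day 28 controls, and -1.36, -1.28, -1.68 and -1.77 on the day 28 OVA arrays. Here the day 28 OVA arrays spanned the controls on both sides. The clone probe differed by 0.03 ± 0.15 (SE) between OVA and control at day 28, with a 95% interval from -0.31 to 0.37. From day 14 to day 28 it differed in OVA by -0.04 ± 0.13, with an interval from -0.32 to 0.23. Both comparisons use the day 28 OVA arrays on which the gene was chosen, so they carry no p-value. Between OVA and control at day 14 the clone probe differed by -0.20 ± 0.15 (adjusted p = 0.582, limma). For the RefSeq probe the interval was 0.32 to 0.96 at day 28 and 0.54 to 1.06 between the OVA groups. These are a description, since the probe was chosen on the day 28 arrays, and are not weighed against those of the clone probe. Within an array, RefSeq minus clone was 0.09 to 0.59 on the day 28 OVA arrays and -0.75 to -0.20 on the other 8, where only the shift between arrays can be read. Because the RefSeq probe was chosen on the day 28 arrays, the difference between the probes was not tested. Which part of the transcript, or which member of the cluster, either probe reads was not tested.

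The same cluster holds the pseudogenes Gsdmcl-ps and Gsdmcl1. Gsdmcl1 was too dim to be tested. Gsdmcl-ps read -2.13, -2.37, -2.22 and -2.65 on the day 28 OVA arrays against -2.79 and -2.78 on the day 28 controls, without overlap, and -3.09, -2.36, -3.03 and -2.67 on the day 14 OVA arrays. Its 2 day 14 controls were far apart, at -1.26 and -2.86. Neither the day 28 difference (0.45 ± 0.35, SE, adjusted p = 0.429, limma) nor that between the OVA groups (0.45 ± 0.29, adjusted p = 0.25) passed the threshold of 0.05.

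**Figure D2:**
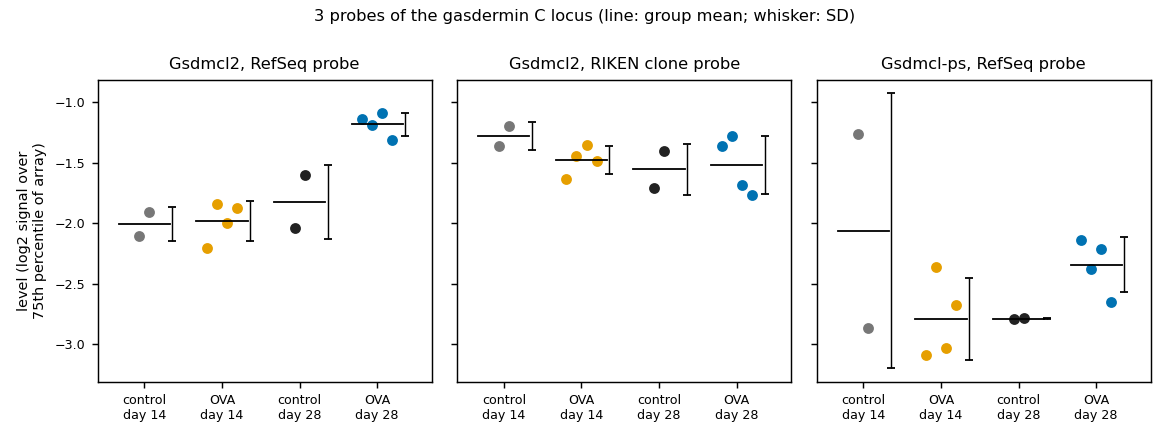
Levels (log2 signal over the array's 75th percentile) of the RefSeq probe of Gsdmcl2, the RIKEN clone probe of the same gene and the probe of Gsdmcl-ps on the 12 arrays, with group means (lines) and SD (whiskers). In the first panel the day 28 OVA arrays lie above all others, while in the second they span -1.77 to -1.28 around the day 28 controls; heights are not compared between panels.

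Cyp2d13 is a pseudogene of the cytochrome P450 subfamily 2D, a cluster of oxidases known for drug metabolism, and its nearest protein-coding neighbour is Cyp2d34. The probe was dim. It read -3.26 and -3.69 on the day 14 controls, -3.33, -4.11, -3.22 and -3.34 on the day 14 OVA arrays, -3.73 and -3.83 on the day 28 controls, and -2.56, -2.73, -3.24 and -2.90 on the day 28 OVA arrays. The day 28 OVA arrays lay above both day 28 controls, but the third of them lay just below the highest day 14 OVA array. At day 28 the means were -2.85 ± 0.29 (SD, n = 4) and -3.78 ± 0.07 (SD, n = 2), a difference of 0.93 ± 0.25 (SE), or 1.90-fold. The OVA groups differed by 0.64 ± 0.20.

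The Cyp2d13 signal was 15.5 to 38.5 units on the other 8 arrays and 51.3 to 83.5 on the day 28 OVA arrays, where the scanner's own error was 11.2% to 12.9% of the signal. That error reached 44.3% on OVA day 14 replicate 2, the array at -4.11 and the only one where the probe was not well above background. At day 14 the difference was -0.03 ± 0.25 (adjusted p = 0.974, limma), with a 95% interval from -0.57 to 0.52. With the normexp background correction and its offset of 50 units the day 28 difference was 0.13. The neighbouring pseudogene Cyp2d37-ps, well above background on 7 of 12 arrays, differed by 0.11 ± 0.39 at day 28 (adjusted p = 0.876, limma), with OVA arrays from -4.71 to -3.42 on both sides of the controls at -4.54 and -3.81.

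Among the regulator-derived pseudogenes, Slc2a4rg-ps comes from a gene named for regulating the insulin-responsive glucose transporter gene SLC2A4. It overlaps the span of Zbtb46, a dendritic cell transcription factor gene. Of the 3 genes chosen on day 28 it was the one lower in OVA. The probe read 1.38 and 1.54 on the day 14 controls, 1.35, 1.29, 1.53 and 1.70 on the day 14 OVA arrays, 1.59 and 1.96 on the day 28 controls, and 0.97, 1.03, 1.06 and 1.26 on the day 28 OVA arrays. The day 28 OVA arrays were the lowest of the 12, and the day 28 controls included the highest. The day 28 means were 1.08 ± 0.13 (SD, n = 4) and 1.78 ± 0.26 (SD, n = 2), a difference of -0.70 ± 0.15 (SE), or 1.62-fold. The OVA groups differed by -0.38 ± 0.12.

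For Slc2a4rg-ps the difference at day 28 appeared after scaling of the arrays, by the percentile or by spike-in RNAs. Its unscaled signal was 966, 1036, 1008 and 1319 units on the day 28 OVA arrays and 981 and 1233 on the day 28 controls, which overlap. Divided by the spike-in RNAs in place of the 75th percentile, the difference was -0.71. The 8 spike-ins stood on average 2.42 to 2.55 above the percentile on the day 28 OVA arrays and 2.42 and 2.47 above it on the day 28 controls. Without control day 28 replicate 2, the higher of the pair, the difference was -0.51. At day 14, independent of the choice, it was 0.0035 ± 0.15 (SE, adjusted p = 0.995, limma), with a 95% interval from -0.32 to 0.32.

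Morf4l1-ps1 derives from the gene of MORF4L1 (MRG15), a chromodomain protein of histone acetyltransferase complexes, and lies within the span of Lpp. The probe read -0.52 and -0.22 on the day 14 controls, -0.05, -0.09, -0.62 and -0.04 on the day 14 OVA arrays, -0.70 and -0.66 on the day 28 controls, and -0.77, -0.76, -0.70 and -0.99 on the day 28 OVA arrays. All 6 arrays of day 28 lay below all 6 of day 14, with OVA day 14 replicate 3 close to them. This is a description, since the gene was chosen between the OVA groups, and the share of all features with that split was not counted. The days did not overlap, in either direction, for 36.7% of features in OVA and 37% in controls. In OVA mice the level was lower at day 28 than at day 14 by 0.61 (-0.61 ± 0.14, SE), or 1.52-fold, from means of -0.80 ± 0.12 and -0.20 ± 0.28 (SD, n = 4 each). Without OVA day 14 replicate 3 it was -0.75. Its unscaled signal was 184 to 278 units on the day 14 OVA arrays and 277 to 301 on those of day 28.

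The control groups of Morf4l1-ps1, which share no array with that comparison and lay on 1 slide, also did not overlap. Their difference was -0.31 ± 0.19 (SE) from day 14 to day 28 and did not pass (adjusted p = 0.602, limma), with a 95% interval from -0.73 to 0.11. The OVA effect averaged over both days was 0.03 ± 0.12 (adjusted p = 0.913), from 0.17 at day 14 and -0.12 at day 28, and its interval ran from -0.23 to 0.28. At day 28 the groups were all but touching, with the highest OVA array at -0.7045 and the lowest control at -0.7007, and the difference of -0.12 ± 0.17 was smaller than its SE.

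Marcksl1-ps4 descends from the gene of MARCKSL1, an actin-binding substrate of protein kinase C, and lies beside Akr1c19. It read higher in OVA on both days. The levels were 2.44 and 2.88 on the day 14 controls, 2.99, 3.17, 2.97 and 3.07 on the day 14 OVA arrays, 2.85 and 2.82 on the day 28 controls, and 3.06, 3.12, 3.13 and 3.20 on the day 28 OVA arrays. All 8 OVA arrays lay above all 4 controls, which is a description, since the gene was chosen on the averaged effect. The share of all features with that split was not counted. The groups did not overlap, in either direction, for 23.1% of features at day 14 and 42.2% at day 28. The difference was 0.39 ± 0.12 (SE) at day 14 and 0.29 ± 0.12 at day 28, and 0.34 ± 0.09 on average, or 1.27-fold. The day 14 size rested on control day 14 replicate 1: it was 0.17 without that array and 0.61 without the other control of the day. At the Marcksl1-ps4 spot of that array the local background was 19 units. The spots around it read 0.07 below their medians over the 12 arrays, within the range of the other arrays. Scaled by the spike-ins, which stood higher over the percentile on the day 14 OVA arrays (2.45 to 2.69) than on the day 14 controls (2.36 and 2.29), the day 14 difference was 0.13 and the average 0.21.

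Comparisons that the choice of Marcksl1-ps4 left independent did not pass. The OVA effect differed between days by -0.10 ± 0.17 (SE, adjusted p = 0.779, limma), with a 95% interval from -0.47 to 0.28. The OVA groups differed by 0.08 ± 0.10 (adjusted p = 0.567) and the control groups by 0.17 ± 0.14 (adjusted p = 0.701). Its non-coding neighbour Gm40656 was higher in OVA by 0.42 ± 0.31 at day 28 and did not pass (adjusted p = 0.390), with OVA arrays from -3.93 to -3.05 that overlapped the controls at -4.04 and -3.75.

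Ppp4r1l-ps descends from a relative of Ppp4r1, which encodes a regulatory subunit of protein phosphatase 4, and its neighbour is Rab22a. It was the dimmest of the set against its own background: well above it on 4 of 4 day 28 OVA arrays, 0 of 4 day 14 OVA arrays, 2 of 2 day 28 controls and 1 of 2 day 14 controls. The levels were -2.97, -2.81, -3.14 and -3.83 on the day 28 OVA arrays, -4.95, -4.61, -5.18 and -6.01 on the day 14 OVA arrays, -3.93 and -4.12 on the day 28 controls, and -4.63 and -4.82 on the day 14 controls. The day 28 OVA arrays were the highest of the 12, followed by the day 28 controls. The fitted difference between the OVA groups was 2.00 ± 0.28 (SE), from means of -3.19 ± 0.45 and -5.19 ± 0.60 (SD, n = 4 each).

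Since Ppp4r1l-ps was not called well above background on any day 14 OVA array, that difference is better read as a bound. With each dim array set at the lowest signal called well above background there, day 28 was at least 1.81-fold higher. That lowest level was -3.01 on OVA day 14 replicate 2 and -4.52 to -4.25 on the other 3 arrays. Spots brighter than that lowest one can also fail the call, so the bound is nominal. Before correction the day 14 OVA spots read 27 to 44.5 units over a local background of 19 to 23, and the day 28 OVA spots 79.5 to 113 over 24 to 27. With normexp and its offset the difference was 0.09. At day 28 the OVA effect was 0.84 ± 0.34 without overlap. The effect averaged over both days was 0.19 ± 0.24, with a 95% interval from -0.34 to 0.72. The control groups differed by 0.70 ± 0.40 without overlap. Ppp4r1l-ps entered the tested features only through the day 28 groups, where it is high, so these values are a description with no p-value.

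Tmem181c-ps comes from the Tmem181 family of transmembrane proteins and lies beside Dynlt1c. The probe was bright. It read 2.23 and 2.67 on the day 14 controls, 2.71, 2.87, 2.85 and 2.89 on the day 14 OVA arrays, 2.78 and 2.78 on the day 28 controls, and 2.35, 2.42, 2.43 and 2.50 on the day 28 OVA arrays. The OVA arrays lay above both controls at day 14 and below both at day 28. The difference was 0.38 ± 0.12 (SE) at day 14 and -0.35 ± 0.12 at day 28, so that the OVA effect differed by -0.73 ± 0.17 between the days. Averaged over both days, a comparison independent of that, it was 0.02 ± 0.09 (adjusted p = 0.928, limma), with a 95% interval from -0.17 to 0.20.

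The day 14 part of this pattern rested on control day 14 replicate 1. At the Tmem181c-ps spot of that array the local background was 54 units, against 17 to 25 on the other 11 arrays. In a window of 15 by 15 around it, spots read a median 0.47 (log2) above their 12-array medians, against -0.14 to 0.14 elsewhere. Without that array the day 14 difference was 0.16 and the difference between days -0.51; without the other control of the day they were 0.61 and -0.96. With spike-in scaling they were 0.13 and -0.50. On control day 14 replicate 1 Tmem181c-ps itself read 2.23, its lowest level of the 12 arrays, while the spots around it read higher. The part of this local disturbance in the result was not tested further. The size of the day 28 difference used no day 14 array, and stayed between -0.38 and -0.33 with any 1 array left out. Its SE came from the model of all 12 arrays, control day 14 replicate 1 included. The unscaled signal of Tmem181c-ps at day 28 was 2511 to 3118 units in OVA and 2167 and 2245 in controls, so the lower level there, like that of Slc2a4rg-ps, appears after scaling and not in the raw signal. Scaling by the spike-ins in place of the percentile also gave a lower level at day 28 (-0.37).

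**Figure D3:**
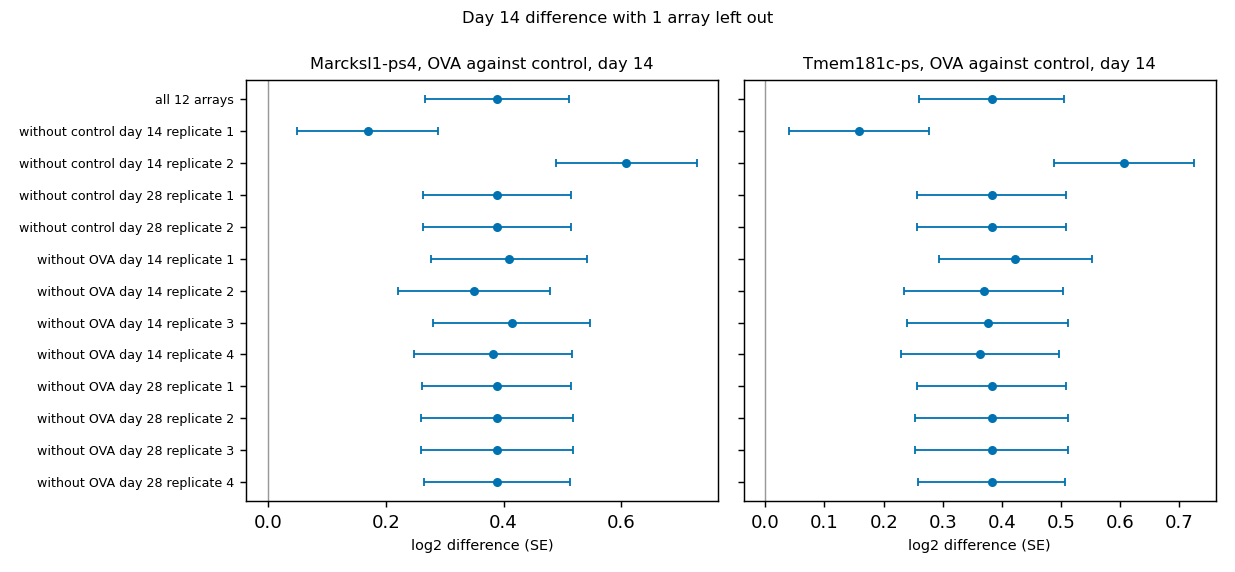
Day 14 difference between OVA and control (log2, with SE) of Marcksl1-ps4 and Tmem181c-ps with all 12 arrays and with each array left out in turn. Both values drop without control day 14 replicate 1, to 0.17 and 0.16, and rise to 0.61 without control day 14 replicate 2.

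Across the 7 genes, the control and OVA arrays of day 28 did not overlap for any, which is a description, since that day entered the choice, and holds for 42.2% of all features. At day 14 they did not overlap for 2 of 7 (Marcksl1-ps4 and Tmem181c-ps), where the share of all features was 23.1%. Both genes were chosen on comparisons that include day 14, so this too is a description. Of the 3 genes whose day 14 comparison was independent of the choice, 0 passed by limma after adjustment, where 0.0676% of features passed, and 0 at an unadjusted p under 0.05, where 14.7% did. Between the OVA groups 5 of 7 did not overlap, against 36.7% of features, and 34.1% of features passed. That count is a description too. Morf4l1-ps1 and Ppp4r1l-ps were chosen on this comparison, and Gsdmcl2, Slc2a4rg-ps and Tmem181c-ps on comparisons that share arrays with it. Between the control groups 5 of 7 did not overlap (Slc2a4rg-ps, Cyp2d13, Tmem181c-ps, Morf4l1-ps1 and Ppp4r1l-ps), against 37% of features with the same pairs of arrays. The choice of Slc2a4rg-ps, Cyp2d13 and Tmem181c-ps used control arrays, so this count is also a description. At day 28 14.1% of features passed, and the shares were 6.52% for the averaged effect, 2.95% for the difference between days and 0.00138% between the controls. OVA and control at day 28 share arrays with the other comparisons, so the values of a gene are not separate evidence.

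**Figure D4:**
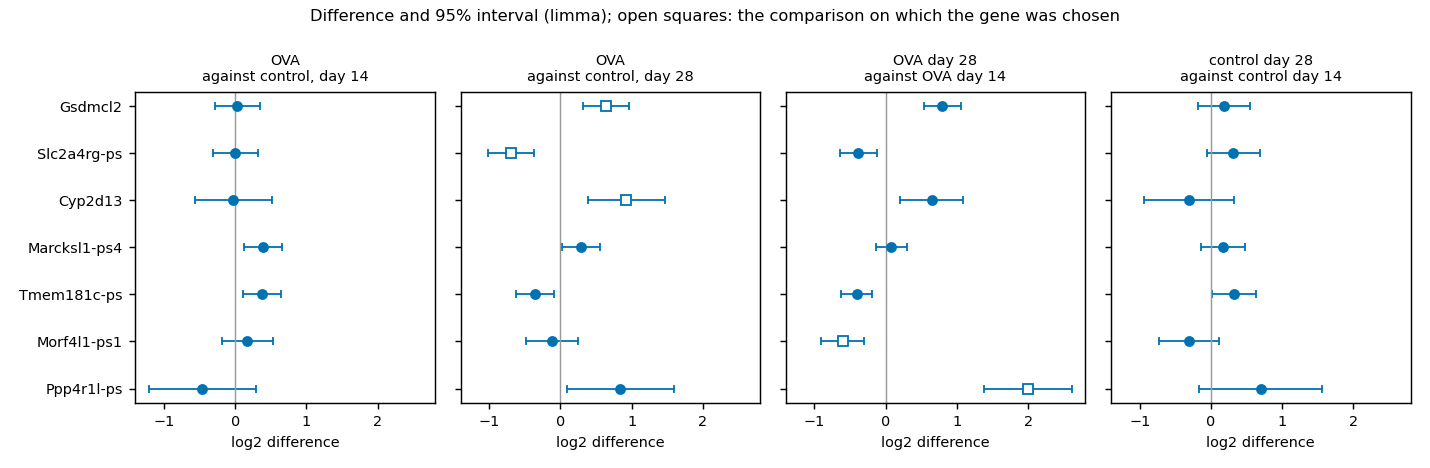
Log2 difference of each pseudogene with its 95% interval (limma) in 4 comparisons, with open squares where the gene was chosen on that comparison (Marcksl1-ps4 and Tmem181c-ps were chosen on combinations of the first and second panels). Filled circles include comparisons correlated with the choice, and those intervals are a description. At day 14 the intervals of Gsdmcl2, Slc2a4rg-ps and Cyp2d13 include 0. Between the OVA groups Ppp4r1l-ps stands at 2.00.

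The other 97 tested pseudogenes give the setting. At day 28, 8 passed higher in OVA and 2 lower, 10.3% in all, with a median difference of 0.08 against -0.03 for all features. At day 14, 0 passed by limma (12 at an unadjusted p under 0.05, or 12.4%, against 14.7% of all features), with a median of 0.02 against 0.05. For the averaged effect 6 passed higher and 0 lower, and for the difference between days 1 each way. Between the OVA groups 17 were higher and 9 lower at day 28, 26.8% in all, and between the control groups 0 passed (12 at an unadjusted p under 0.05, or 12.4%, against 10.3% of all features). Of the day 28 calls, 6 lay among 47 pseudogenes with provisional Gm or LOC names (4 higher, 2 lower), 1 among 4 olfactory receptor pseudogenes, and 3 among 38 of no listed family. The families with 1 or 2 tested members (histocompatibility, vomeronasal receptor, cytochrome P450, gasdermin, ribosomal protein and zinc finger) gave 0 calls there.

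Just outside the set, the other pseudogene without a Gm, LOC or Rik name that passed at day 28 was Olfr1372-ps1, of an odorant receptor gene, with a mean 0.50 higher in OVA as measured, next to 0.64 for Gsdmcl2 just inside. It entered the tested features only through the group where it is high, so its values are a description with no p-value. It was well above background on the 4 day 28 OVA arrays (mean -4.25 ± 0.14, SD) and on 0 of the other 8, including the day 28 controls (-4.75 ± 0.03, SD, n = 2), which by the bound used for Ppp4r1l-ps is at least 1.36-fold. On the day 14 OVA arrays Olfr1372-ps1 read -5.05 ± 0.21 (SD, n = 4), and the bound there allows no fold. Zfp862-ps, of a zinc finger gene, was well above background on all 12 arrays. It was higher on the day 28 OVA arrays (-0.16 ± 0.10, SD, n = 4) than on those of day 14 (-0.66 ± 0.08), by 0.50 ± 0.12 (SE). Zfp862-ps was named because it passed on this comparison, so its values are also a description with no p-value.

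Each member rested on a single spot per array, as did 58 of the 104 tested pseudogenes. For probes with a pair of spots at a like level, the spots of a pair differed on the log2 scale by a median of 0.06 for the level of Marcksl1-ps4 and of Tmem181c-ps, 0.07 for Slc2a4rg-ps, 0.09 for Morf4l1-ps1, 0.12 for Gsdmcl2, 0.22 for Cyp2d13 and 0.34 for Ppp4r1l-ps. At the 90th percentile these were 0.17 to 0.31 for the 5 brighter probes, 0.61 for Cyp2d13 and 0.99 for Ppp4r1l-ps. The SD within groups was 0.07 to 0.41 for Cyp2d13 and 0.13 to 0.60 for Ppp4r1l-ps. No member spot was flagged as an outlier.

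The named genes whose profile over the 12 arrays was nearest to that of each member were found among 161 candidates, by the root mean square difference of mean-centred log2 levels. For Gsdmcl2 they were Smim10l1 (0.20) and Zxda (0.22), where the profile of Gsdmcl2 itself had a root mean square of 0.39. For Slc2a4rg-ps they were Phxr4 (0.13) and Hnrnpa1 (0.15, against 0.28). Cyp2d13 was nearest to Zfp652os (0.27) and Trmt61b (0.29, against 0.44). Marcksl1-ps4 was nearest to Mir22hg (0.10) and Fam120aos (0.13, against 0.20), and Tmem181c-ps to Lncpint (0.11) and Rpph1 (0.13, against 0.22). Morf4l1-ps1 was nearest to Ftx (0.20) and Dmrta2os (0.21, against 0.31), and Ppp4r1l-ps to Zfp410 (0.58) and Tvp23bos (0.60, against 0.93). All these profiles share arrays and slides.

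**Figure D5:**
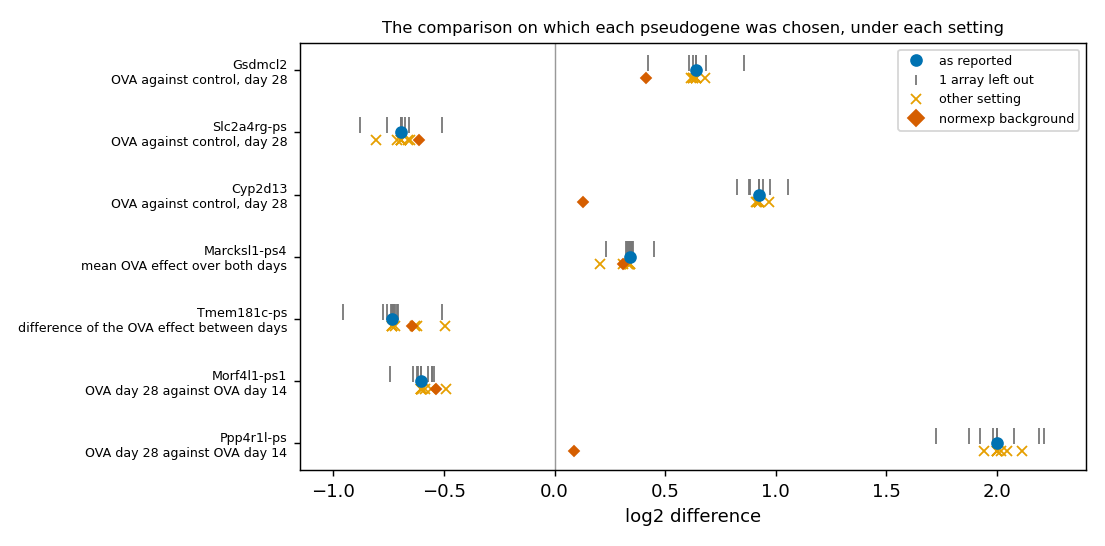
The log2 difference on which each pseudogene was chosen, as reported (circles), with 1 array left out (bars) and under other settings (crosses, with diamonds for normexp background correction). All values keep their sign; Cyp2d13 and Ppp4r1l-ps, the dimmest probes, fall to 0.13 and 0.09 with normexp.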

How the data were processed

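Per the file headers, the deposited scanner files came from Agilent Feature Extraction 11.5.1.1 (9.1 per the submitters' processing notes) and hold a spot intensity on a linear scale. The column used was the processed signal, already background-corrected by that program per the file headers. Control and outlier-flagged spots were dropped, log2 was taken, each array's 75th percentile was subtracted and spots of a probe were averaged. A feature was tested if its probe was called well above background throughout 1 or more of the 4 groups. One limma model (limma 3.58.1, R 4.3.3) took all 12 arrays with the 4 groups as terms, 8 residual degrees of freedom and 6 contrasts, with Benjamini-Hochberg adjustment over 72515 features. It was tested on simulated data.

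Probes were named through RefSeq accessions of non-coding transcripts, without version (table of GRCm38.p6). The array headers name another build, so no coordinates are given. The genes nearest in profile, other pseudogenes and neighbours were named by rule: the 2 nearest profiles, up to 3 pseudogenes per direction and contrast without Gm, LOC or Rik names, and named non-coding probes within 100 kb. The members and lists were chosen with earlier results of these data known. The labels do not say more about how mice were handled in parallel; p-values measure the spread between these spleens within groups, without any difference between slides, and the number of arrays limits the precision. The authors' deposited table of log2 values was not used here.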

Additional observations from a re-analysis of the deposited data

Results flagged for a closer look

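In 16 groups of 4 arrays, 2 held an array far from the other 3, where chance gives about 1 in 20 groups. Cyp2d13 read -4.11 on OVA day 14 replicate 2, with a gap of 0.859 of the group's range; that array had the fewest spots well above background, at 57.5%. Morf4l1-ps1 read -0.62 on OVA day 14 replicate 3, with a gap of 0.906 of the range.

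For Tmem181c-ps the OVA effect differed between days by -0.73 on the log2 scale; the gene was chosen on this value, which is -0.51 without control day 14 replicate 1.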

How the results depend on the processing

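Over 34 comparisons of 1 pseudogene, 699 refits kept direction and side of the threshold in 604; 51 lost the threshold, 7 gained it and 37 changed sign, of which that of Cyp2d13 between the OVA groups with normexp (-0.11) started from a difference past the threshold. The cause was not tested. Most of the comparisons were not past the threshold at the start, and for them a kept side meant not passing. Where a gene had been chosen on a comparison of these same arrays, a kept threshold there is no support for the difference. On the comparison that chose each gene, the threshold was lost in 15 of 20 refits for Tmem181c-ps, 14 of 20 for Marcksl1-ps4 and 7 of 20 for Cyp2d13. The losses were 1 of 21 each for Gsdmcl2 and Slc2a4rg-ps, 1 of 20 for Ppp4r1l-ps and 0 of 21 for Morf4l1-ps1. Other sign changes were, at day 14, Gsdmcl2 -0.033 (percentile over detected probes) and -0.23 (spike-in scaling); Slc2a4rg-ps -0.094 (normexp), -0.057 (that percentile), -0.25 (spike-in), -0.060 (quantile), -0.0091 (outlier spots kept) and -0.11 (replicate block); Cyp2d13 0.16 (normexp) and 0.062 (quantile); Morf4l1-ps1 -0.082 (spike-in); Ppp4r1l-ps 0.064 (normexp). For the averaged effect they were Tmem181c-ps -0.12 (spike-in), -0.012 (quantile) and -0.025 (replicate block), and Morf4l1-ps1 -0.082 (normexp), -0.11 (spike-in) and -0.00040 (quantile). For the difference between days they were Marcksl1-ps4 0.036 (normexp), 0.0072 (percentile), 0.14 (spike-in) and 0.0022 (quantile). With 1 array left out, values ran from -0.073 to 0.13 (Gsdmcl2), -0.079 to 0.086 (Slc2a4rg-ps) and -0.24 to 0.19 (Cyp2d13) at day 14, -0.10 to 0.13 (Tmem181c-ps) and -0.049 to 0.10 (Morf4l1-ps1) for the averaged effect, -0.32 to 0.12 (Marcksl1-ps4) for the difference between days, and -0.034 to 0.40 (Gsdmcl2) and -0.045 to 0.39 (Marcksl1-ps4) between controls.

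The count of all features past the threshold at day 14 (49) was 260 with normexp, 12 with the percentile over detected probes, 453 with spike-in scaling (7.28% higher in OVA, against 91.8%), 146 with quantile normalization, 1 without a filter, 267 over probes well above background on all 12 arrays, 0 both with the replicate block and with a fit of those groups alone, and 2 to 1978 with 1 array left out. At day 28 (10191) it was 27651 with normexp (22.9% higher, against 52.9%), 6514 with spike-in scaling, 5943 without a filter, 6652 with the block and 1976 to 12185. For the averaged effect (4725) it was 8097 with normexp (51.5% higher, against 76.0%), 2013 without a filter, 503 with the block and 1428 to 6028; with spike-in scaling 15.5% of 7042 were higher. For the difference between days (2138) it was 22051 with normexp, 329 without a filter, 3951 over probes well above background on all 12 arrays, 391 with the block and 282 to 5995, and the share higher ran from 14.8% (normexp) to 97.3% (spike-in), against 53.9%. Between the OVA groups (24708) it was 47594 with normexp and 19050 to 26621; 71.6% were higher with spike-in scaling, against 43.9%. Between controls (1) it was 3 with normexp, 2 each with spike-in, quantile and the 12-array filter, 0 with only the groups compared, and 1 to 1562. The lowest day 28 count was without control day 28 replicate 2 and the highest day 14 and control counts without control day 14 replicate 2.

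Same-numbered arrays deviated together with correlations from -0.18 to 0.32, so the numbers are not shown to pair the mice; under the replicate block Ppp4r1l-ps differed by 1.19 at day 28 (0.84 without). Dim signal limits Cyp2d13 and Ppp4r1l-ps, and 2 controls per day limit every comparison with saline.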
